A study of Homo sapiens with 16 samples.

Results

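The comparison described here is the standing difference between 2 stable lines of HCT116, an established human colorectal carcinoma cell line. One line carried a doxycycline-inducible short hairpin RNA against *NAA40* (NAA40-KD) and the other an inducible scrambled hairpin (SCR). RNA-seq was carried out on 4 groups of 4 samples, each line with and without inducer, where (+dox) stands for 96 h with doxycycline at 1 μg/ml and (−dox) for the same time without it, so that SCR and NAA40-KD each have a (+dox) and a (−dox) group. The comparison takes in all 16 of the 16 samples, 8 from each line, and all genes with more than 1 CPM (the count scaled to a common library size) in at least 4 of them, which were 14392 of 33937 genes. For each gene the line difference was measured under each doxycycline label, and the 2 differences were averaged with equal weight. Whether each line is a pool of cells or a clone is not stated in the sources used here, and each construct is represented by 1 line. The effect of the hairpin and any other difference between the 2 lines therefore cannot be told apart, and p-values measure the spread between samples of these lines.

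NAA40 is an N-terminal acetyltransferase that modifies histones H4 and H2A. Stable lines made separately from the same parental cells can differ in standing ways, through the construct, its site of integration or the cells that founded each line, and such differences are present with or without inducer. Several of the genes below are targets of ATF4, the transcription factor of the integrated stress response. When amino acids run short or unfolded proteins accumulate, the kinases GCN2, PERK, HRI and PKR phosphorylate the initiation factor eIF2α, translation of the *ATF4* messenger rises, and ATF4 switches on amino acid transporters, serine and asparagine synthesis enzymes, aminoacyl-tRNA synthetases and the regulators CHOP and TRIB3.

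The targeted gene went against the labels. *NAA40* stood at 26.05, 28.4, 26.2 and 28.8 CPM in SCR (+dox), at 34.5, 25.9, 29.1 and 28.2 CPM in SCR (−dox), at 31.45, 29.3, 28.65 and 31.9 CPM in NAA40-KD (+dox) and at 12.6, 11.6, 9.27 and 13.8 CPM in NAA40-KD (−dox). It was thus low in all 4 libraries labelled NAA40-KD (−dox) and in none of those labelled NAA40-KD (+dox), and groups are called by their labels throughout. The log2 difference between the lines was −1.31 under the (−dox) label (p = 0.0286, the smallest that the 70 arrangements of 4 against 4 allow) and 0.15 under the (+dox) label (p = 0.0571), and −0.58 for the average (p = 0.0282 over 4900 arrangements, exact two-sided permutation tests). The averaged difference is the same whichever way the doxycycline labels are exchanged within a line, whereas the counts of genes under each label are not.

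Total counts ranged from 11065606 to 13855486 per library. The library NAA40-KD (−dox) replicate 4 stood apart from the rest. It lay at 103.5 on the first principal component, which held 39.2% of the variance, against −21.8 to 8.5 for the other 15, and its median correlation with its own group was 0.9237 against 0.9847 or more for the others. Several calls and counts below changed when it was left out, and values without it are given for some of them. Among the markers of colorectal epithelium, *EPCAM*, *CDH1*, *KRT8*, *KRT18* and *KRT19* were high in every library, while *VIL1*, *CDX1*, *GPA33* and *CDH17* were below 1 CPM. The summed markers of leukocytes reached 3.65 CPM at most in SCR and 1.95 CPM in NAA40-KD, and those of endothelial cells 3.54 and 4.60 CPM. *DCN*, *LUM* and *PDGFRA*, which define fibroblasts, were at or near 0, and the fibroblast sum of 58.6 to 186 CPM was almost entirely *COL1A1*.

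The genes that differed the same way under both labels were mostly lower in NAA40-KD. By the quasi-likelihood test of edgeR, adjusted after Benjamini and Hochberg, 302 genes had an adjusted p under 0.05 under each label with the same sign, of which 233 were lower in NAA40-KD (1.62% of all tested genes) and 69 were higher (0.479%). The median size of the line difference in the 233 lower genes was 0.937 on the log2 scale under the (+dox) label and 0.89 under the (−dox) label, and in the 69 higher genes it was 0.655 and 0.673. The levels in the 8 libraries of one line did not overlap with those in the 8 libraries of the other for 178 of the 233 lower genes and 53 of the 69 higher ones. Over all tested genes NAA40-KD lay wholly below SCR for 324 (2.25%) and wholly above for 182 (1.26%). The line difference itself differed between the labels (interaction test, adjusted p under 0.05) for 27 of the 302 genes.

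**Figure D1:**
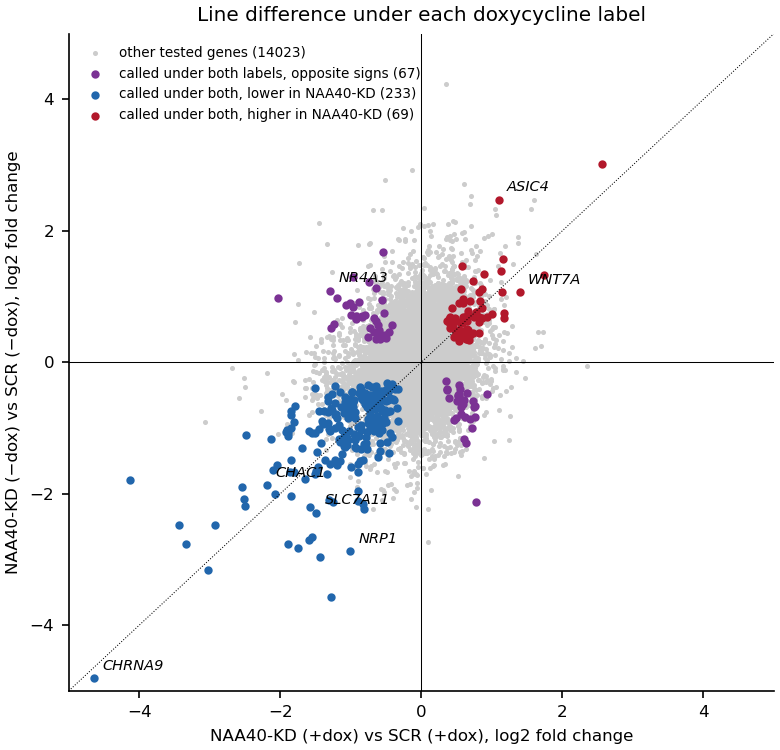
Log2 fold change of NAA40-KD against SCR for each of 14392 tested genes, among the (+dox) libraries on the horizontal axis and among the (−dox) libraries on the vertical axis, with the dotted line marking equal differences. The 233 blue points, called lower under both labels, outnumber the 69 red points, called higher under both, and 67 purple points were called under both with opposite signs.

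With a log2 fold change above 1 under both labels as well, 73 genes remained, of which 66 were lower in NAA40-KD (0.459% of tested genes) and 7 higher (0.0486%). The average over the labels alone was a weaker guide to a standing difference. It passed the test with a log2 fold change above 1 for 267 genes, 185 lower (1.29%) and 82 higher (0.570%), but only 109 of these 267 were called under both labels with the same sign, and 113 were called under the (−dox) label only, 32 under the (+dox) label only and 13 under neither. Each label on its own gave 966 calls under (+dox), 278 higher and 688 lower, and 2951 under (−dox), 1440 higher and 1511 lower. The 302 shared genes were thus 31.3% of the former and 10.2% of the latter, and 7834 of all tested genes (54.4%) had the same direction under both labels whether called or not.

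Leaving out the library that stood apart changed how many genes were called. Without NAA40-KD (−dox) replicate 4, the count of genes called under both labels with the same sign was 1158, 700 lower and 458 higher, and it held 293 of the original 302 genes, 301 of which were still tested. The share of lower genes was then 60.4%, against 77.2% with all libraries. The median log2 fold change of all genes was −0.003 without it and 0.013 with it. Leaving out any one of the other 15 libraries gave 193 to 263 genes. The genes described below as called under both labels were among those 293.

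**Figure D2:**
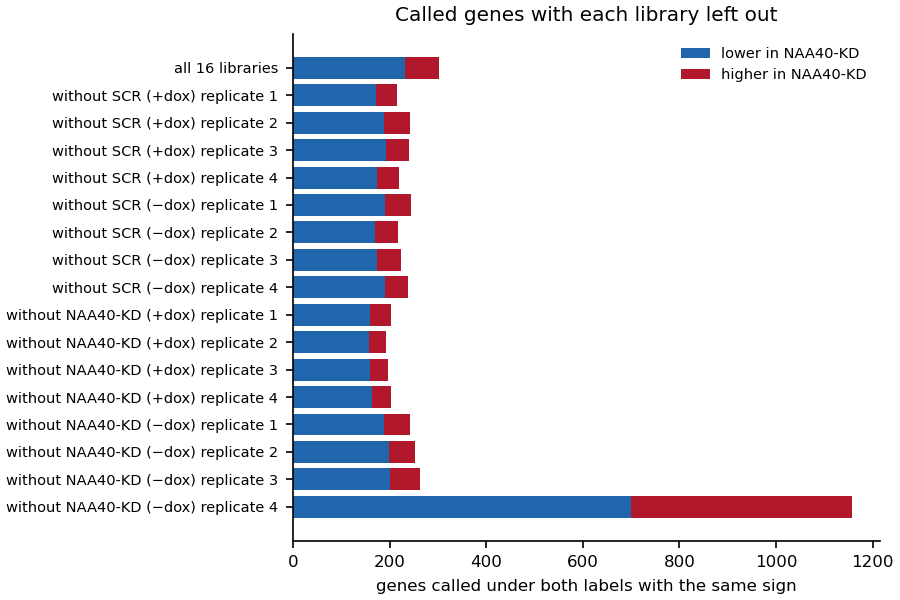
Number of genes called under both labels with the same sign (horizontal axis) when all 16 libraries are used and when each library is left out, split into genes lower (blue) and higher (red) in NAA40-KD. The bar without NAA40-KD (−dox) replicate 4 reaches 1158 genes, while the bars without one of the other libraries run from 193 to 263.

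Of the 15 lower genes with the largest standing difference, each with a mean of at least 5 CPM in one line and no overlap, several belong to amino acid stress. *CHAC1*, which encodes an enzyme that degrades glutathione, ran from 32.7 to 78.5 CPM in SCR with a median of 48.0, and from 7.545 to 20.9 CPM in NAA40-KD with a median of 10.8. *TRIB3*, encoding a pseudokinase induced by ATF4 and CHOP, ran from 145.5 to 318.5 CPM in SCR (median 234.1) and from 44.3 to 113.4 CPM in NAA40-KD (median 60.0). Every NAA40-KD library lay below every SCR library for both genes. The averaged log2 fold change was −2.03 ± 0.23 (SE) for *CHAC1* (adjusted p = 1.85e-05) and −1.87 ± 0.19 for *TRIB3* (adjusted p = 4.745e-06).

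*SLC7A11*, the cystine transporter, had a median of 171.2 CPM in SCR (114.6 to 222.1) and 46.8 CPM in NAA40-KD (14.6 to 78.6). Its log2 fold change was −1.49 under (+dox) and −2.29 under (−dox), and this gap between the labels did not pass the interaction test (adjusted p = 0.1175). *SLC1A4*, a neutral amino acid transporter, fell from a median of 23.8 CPM to 7.96 CPM, and *PSAT1*, an enzyme of serine synthesis, from 328.2 CPM to 130.8 CPM. Neither gene had overlapping libraries, and their averaged log2 fold changes were −1.61 ± 0.15 and −1.38 ± 0.13.

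Other genes in this group have no evident tie to amino acids. *PRDM1*, the transcriptional repressor BLIMP1, was at 11.3 to 14.2 CPM in SCR and 3.21 to 5.10 CPM in NAA40-KD, with nearly the same log2 fold change under the 2 labels (−1.64 and −1.77, interaction adjusted p = 0.756). *KRT20*, a keratin of differentiated intestinal epithelium, was at 5.51 to 7.40 CPM in SCR and 1.09 to 2.24 CPM in NAA40-KD, an averaged log2 fold change of −1.74 ± 0.14. *SERPINB8*, a serine protease inhibitor, fell from a median of 15.6 to 3.69 CPM, and *ANGPT2*, the secreted ligand angiopoietin 2, from 8.41 to 2.68 CPM. *EGR3*, an immediate-early transcription factor, fell from a median of 6.89 to 2.32 CPM.

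*C2orf78* (log2 fold change −2.22 ± 0.13), *TMEM154* (−1.94 ± 0.15), *ACP7* (−1.89 ± 0.18), *LONRF2* (−2.20 ± 0.18) and *FSD1* (−1.65 ± 0.14) completed the 15 and did not overlap either. For *SERPINB8*, *LONRF2* and *FSD1* the size of the difference depended on the label. *LONRF2* fell by 1.43 under (+dox) and by 2.97 under (−dox) on the log2 scale (interaction adjusted p = 0.0154), whereas *FSD1* fell by 2.13 and by 1.17 (adjusted p = 0.0412). *ACP7* did not pass the interaction test with all libraries (adjusted p = 0.298). Without NAA40-KD (−dox) replicate 4 it passed, at −1.58 under (+dox) and −2.7 under (−dox) (interaction adjusted p = 0.000705).

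The higher genes were fewer and moved less. Only *ASIC4*, *WNT7A* and *WWC3* passed the same rule in the upward direction. *WNT7A*, a Wnt ligand, was at 1.78 to 3.65 CPM in SCR and 4.63 to 7.33 CPM in NAA40-KD, an averaged log2 fold change of 1.23 ± 0.15 (adjusted p = 2.82e-05). *WWC3*, a relative of the Hippo pathway regulator KIBRA, was at 6.75 to 11.7 CPM in SCR and 18.3 to 22.7 CPM in NAA40-KD, and its log2 fold change was 1.15 under (+dox) and 1.07 under (−dox). *ASIC4*, of the acid-sensing ion channel family, was at 2.74 to 5.58 CPM in SCR and 9.18 to 45.2 CPM in NAA40-KD. The top value of *ASIC4* came from NAA40-KD (−dox) replicate 4, the other 3 libraries of that group were at 16.6 to 19.5 CPM, and the averaged log2 fold change was 1.79 with this library and 1.56 without it. The call of *ASIC4* under both labels was lost when any 1 of the 8 libraries labelled (+dox) was left out.

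**Figure D3:**
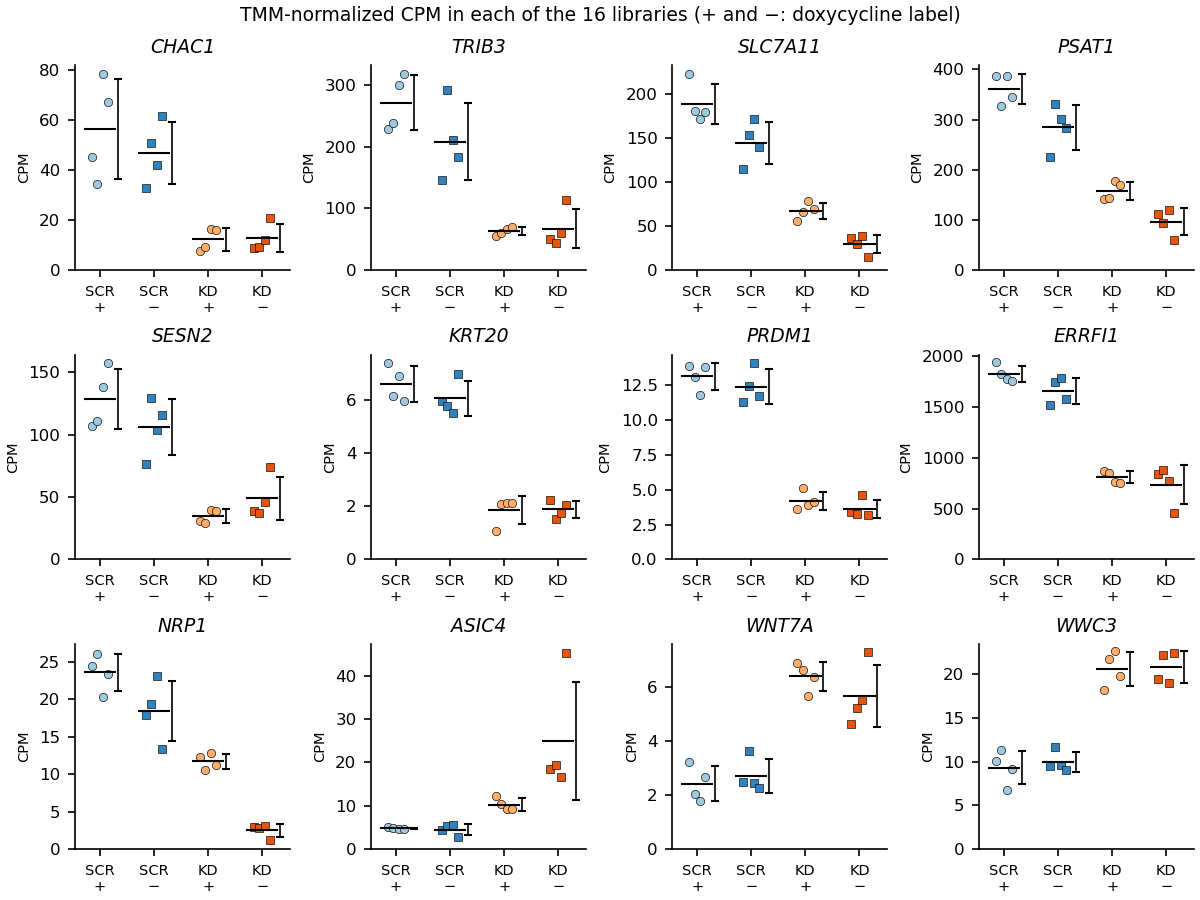
TMM-normalized CPM of 12 genes in each of the 16 libraries (points), by group (+ and − are the doxycycline labels, KD is NAA40-KD), with the mean of 4 libraries (horizontal line) and its SD (vertical bar). *CHAC1* lies at 32.7 to 78.5 CPM in SCR and 7.545 to 20.9 CPM in NAA40-KD whatever the label, *NRP1* falls further in NAA40-KD (−dox), and *ASIC4*, *WNT7A* and *WWC3* are higher in NAA40-KD.

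No gene was restricted to one line by the rule of at most 3 counts in every library of one line and at least 20 in every library of the other. The nearest, named after its values were seen, was *CHRNA9*, a nicotinic acetylcholine receptor subunit, with 10 to 22 counts per library in SCR and 0 to 2 in NAA40-KD. *HLA-DOA* and *HLA-DPA1*, which encode class II antigen presentation proteins and were also chosen after their values were seen, were low in both lines. *HLA-DOA* was at 0.852 to 2.26 CPM in SCR and 0.148 to 0.640 CPM in NAA40-KD, and *HLA-DPA1* at 1.56 to 2.51 and 0.517 to 1.73 CPM.

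Targets of ATF4 and the integrated stress response were the list with the most members lower under both labels. Of 42 tested members, 18 were lower under both (42.9%, against 1.62% of all tested genes) and 0 were higher. With each label fitted on its own 8 libraries, 10 of 41 tested members were lower under both. With all libraries, 8 of the 18 had a log2 fold change below −1 under each label. The averaged difference was called lower at any fold for 36 of 42 (85.7%, against 10.3% of all tested genes). A negative difference under both labels, called or not, was found in 38 of the 42 and in 3760 of all 14392 tested genes. The median log2 fold change of the 42 was −0.82 under (+dox), −0.56 under (−dox) and −0.69 on average, where the medians of all tested genes were −0.01, 0.03 and 0.01. Without NAA40-KD (−dox) replicate 4, 30 members were lower under both labels (71.4%, against 4.89% of all tested genes) and the median average was −0.69. The average was then called lower for 39 members and higher for 1 (92.9% and 2.38%, against 20.7% and 18.1% of all tested genes). Leaving out any other library gave 14 to 18 members lower under both labels.

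The same values can be viewed library by library, which is no separate support, as the list was written with earlier results of these data known. For each library the median over the 42 members of log2(CPM + 1), relative to the mean of the 8 SCR libraries, was −0.68 to −0.64 in NAA40-KD (+dox) and −0.73 to −0.55 in NAA40-KD (−dox). In SCR it ran from −0.37 to 0.22, the lowest being SCR (−dox) replicate 1. These medians overlapped between NAA40-KD (+dox) and NAA40-KD (−dox), but their reference was the mean of SCR over both labels. Against SCR of the same label, the median log2 fold change of the list was −0.82 under (+dox) and −0.56 under (−dox). Any dependence on the level of *NAA40* was not tested. With all libraries the interaction test was passed by 2 of the 42 members, *PPP1R15A* and *ATF3*, and by 1327 of the 14392 tested genes. Without NAA40-KD (−dox) replicate 4 it was passed by 3467 of 14302 tested genes. Those included the members *AARS1* (adjusted p = 0.0221) and *ASNS* (adjusted p = 0.0421). *PPP1R15A*, which encodes the phosphatase subunit GADD34 that reverses eIF2α phosphorylation, had log2 fold changes of −1.22 under (+dox) and −0.15 under (−dox) (interaction adjusted p = 0.029). *ATF3*, an ATF4-induced transcription factor, had −1.08 and 0.07 (adjusted p = 0.01). *PPP1R15A* was called lower under both labels, at −1.22 and −0.39, when NAA40-KD (−dox) replicate 4 was left out.

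Of the members described next, those other than *SLC3A2*, *PSAT1*, *PSPH*, *ALDH1L2* and *SESN2* were chosen after their values were seen, as were *PPP1R15A* and *ATF3*. Among transporters of the list, *SLC3A2*, the heavy chain that partners *SLC7A11* and *SLC7A5*, had a median of 476.4 CPM in SCR and 246.6 CPM in NAA40-KD, with overlapping ranges of 318.4 to 564.4 and 196.1 to 409.2 CPM. Its averaged log2 fold change was −0.77 ± 0.14 (adjusted p = 0.0009), and its call under both labels was lost when any 1 of 14 libraries was left out. *SLC7A5*, the leucine transporter, was called under (+dox), at −0.97 (adjusted p = 0.0101), and missed the threshold under (−dox), at −0.54 (adjusted p = 0.0803), but without NAA40-KD (−dox) replicate 4 it was called there too, at −0.84 (adjusted p = 5.94e-05).

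Among the enzymes of serine and one-carbon metabolism, *PSPH* and *PSAT1* of serine synthesis, *MTHFD2* and *ALDH1L2* of the mitochondrial folate pathway and *PCK2* were lower under both labels. *PSPH* was at 35.6 to 46.8 CPM in SCR and 16.7 to 30.03 CPM in NAA40-KD, and *MTHFD2* at 264.5 to 404.1 and 165.5 to 254.8 CPM. The averaged log2 fold changes of *PSPH* and *MTHFD2* were −0.86 ± 0.08 and −0.84 ± 0.09, and their libraries did not overlap. *ALDH1L2* fell from a median of 9.33 to 5.01 CPM, by 1.02 on the log2 scale, and leaving out any 1 of 6 libraries ended its call under both labels. *PHGDH*, the first enzyme of serine synthesis, had an averaged log2 fold change of −0.42 (adjusted p = 0.0491) and was not called under either label alone, and *ASNS*, asparagine synthetase, was called under (+dox) at −1.48 but not under (−dox) at −0.55 (adjusted p = 0.0917). Both were called under both labels without NAA40-KD (−dox) replicate 4, *PHGDH* at −0.40 and −0.72 and *ASNS* at −1.48 and −0.72.

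The regulators of the response lay in the same direction. *DDIT3*, encoding CHOP, had a median of 28.7 CPM in SCR and 13.7 CPM in NAA40-KD (averaged log2 fold change −1.06 ± 0.14), and *ATF5* had 43.2 and 24.1 CPM (−0.94 ± 0.11). *SESN2* and *DDIT4*, which restrain the kinase mTORC1, were at −1.51 ± 0.16 and −1.16 ± 0.25. For *DDIT4* the adjusted p of 0.0499 under (−dox) lay just inside the threshold, the call was lost when any 1 of 14 libraries was left out, and the libraries overlapped (46.2 to 89.8 CPM in SCR, 15.98 to 72.8 CPM in NAA40-KD). The aminoacyl-tRNA synthetase genes *GARS1* (−0.69 ± 0.08), *WARS1* (−0.56 ± 0.08) and *CARS1* (−0.50 ± 0.09) differed by nearly equal amounts under the 2 labels, with interaction adjusted p of 0.9695, 0.985 and 0.672. This did not hold for every synthetase gene of the list. *AARS1* was not called under both labels. Without NAA40-KD (−dox) replicate 4 it was at −0.79 under (+dox) and −0.23 under (−dox) (interaction adjusted p = 0.0221).

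The messenger of ATF4 itself was not a member of the list and was looked up after the list was seen. *ATF4* was at 524.7 to 842.9 CPM in SCR and 352.8 to 525.8 CPM in NAA40-KD, with 1 library of each line overlapping, and lower under (+dox) by 0.73 and under (−dox) by 0.56 on the log2 scale (adjusted p = 0.00437 and 0.0107). *EIF2AK4*, encoding the amino acid sensing kinase GCN2 and likewise looked up, was higher, at 98.8 to 128.8 CPM in SCR and 138.0 to 193.2 CPM in NAA40-KD, with log2 fold changes of 0.47 and 0.61. Messenger levels give no measure of ATF4 protein or of eIF2α phosphorylation.

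**Figure D4:**
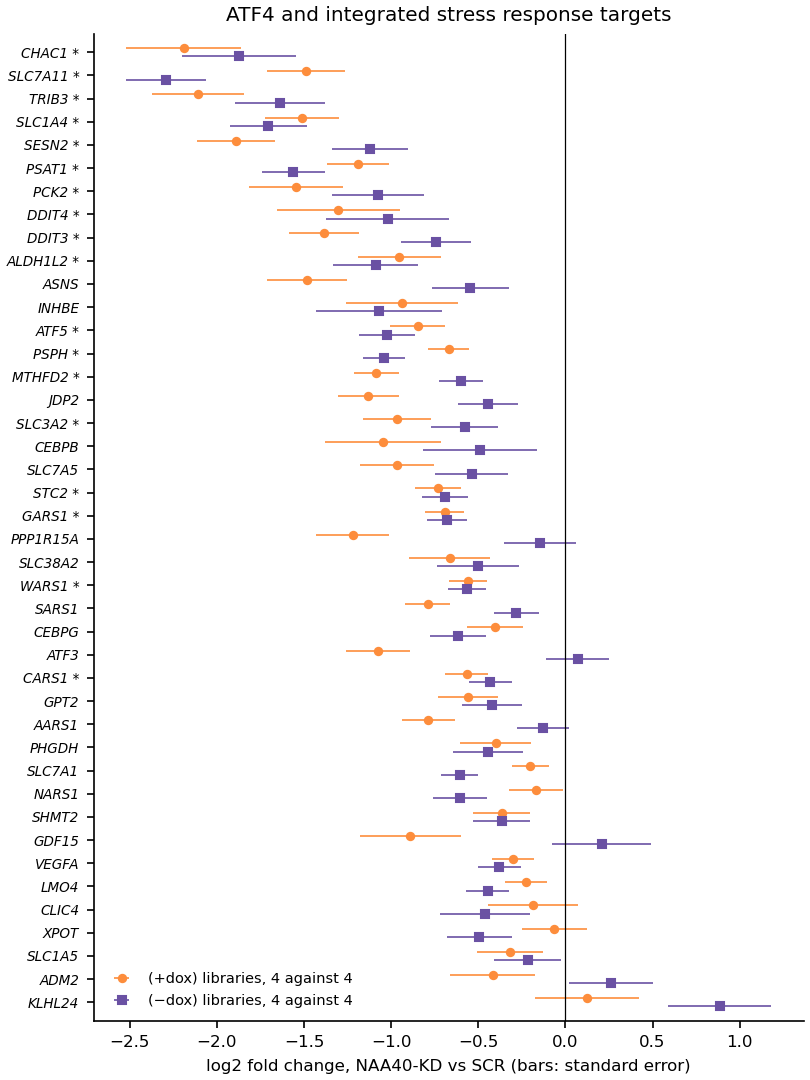
Log2 fold change of NAA40-KD against SCR with its standard error for the 42 tested ATF4 and integrated stress response targets, among the (+dox) libraries (orange circles) and the (−dox) libraries (purple squares), and an asterisk for the 18 members called lower under both labels. All but 4 of the 42 members lie left of 0 under both labels, as do 3760 of all 14392 tested genes. The 18 called members reach from *CARS1* (averaged log2 fold change −0.50) to *CHAC1* (−2.03).

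ATF4 binds a composite C/EBP-ATF element, and the promoters of the list were searched for the letters TGATGNAA on either strand, in RefSeq windows of GRCh38.p14 that run from 250 bases before to 50 bases after the start. A window was found for 35 of the 42 members, of which 8 held a match (22.9%), against 3.67% of 27305 promoters of all genes and 1.59% of the 10701 tested genes with a window. Of the 18 members lower under both labels, 15 had a window and 3 a match (20%), in *CHAC1*, *CARS1* and *SLC3A2*. The cAMP response element, TGACGTCA, was found in 1 of the 35 (2.86%), a share between the 1.98% of all promoters and the 3.29% of the tested genes. In the 250 bases before the start alone, the composite element was in 4 of the 35. A match is a description of the letters, and no binding was measured. As the list was made of known targets of ATF4 and the stress response, its share of matches does not bear on the line difference. The 8 matches follow, each as 30 bases on the strand of the gene with the matching letters, or their complement where the element lies on the other strand, in capitals.
CHAC1: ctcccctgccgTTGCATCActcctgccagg
CARS1: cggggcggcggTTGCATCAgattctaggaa
SLC3A2: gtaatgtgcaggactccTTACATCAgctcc
ASNS: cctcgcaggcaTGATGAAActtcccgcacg
ATF3: aaaggtcaggaTGATGGAAggctgtcatat
AARS1: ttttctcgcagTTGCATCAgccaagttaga
SLC7A1: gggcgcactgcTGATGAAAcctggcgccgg
NARS1: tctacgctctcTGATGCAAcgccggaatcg

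The site of *CHAC1* is at chr15:40953251-40953280 on the forward strand, with its capitals beginning 209 bases before the RefSeq start, inside the bounds that GENCODE release 29 gives the gene. The site of *CARS1* is at chr11:3057407-3057436 on the reverse strand, 2 bases before the start, and that of *SLC3A2* at chr11:62881719-62881748 on the forward strand, 37 bases after the start used by RefSeq and within the gene in GENCODE. *CHAC1* and *CARS1* had the same 8 letters, TTGCATCA, and averaged log2 fold changes of −2.03 and −0.50. The other 5 genes had averaged log2 fold changes from −1.02 in *ASNS* to −0.39 in *NARS1* and were not called under both labels.

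The unfolded protein response of the endoplasmic reticulum was not lower as a list. Of 25 tested members 2 were lower under both labels (8%, against 1.62% of all tested genes). They were the chaperone gene *HSPA5* and *HERPUD1*, which acts in the disposal of misfolded proteins. The median log2 fold change of the list was −0.02. *HSPA5* was at 1321 to 2278 CPM in SCR and 917.7 to 1441 CPM in NAA40-KD. The log2 fold change of *HSPA5* was −1.22 under (+dox) and −0.36 under (−dox), with an adjusted p of 0.0489 in the latter and an interaction adjusted p of 0.00619, and leaving out any 1 of 13 libraries ended the call under both labels. *HERPUD1* had −0.85 and −0.41. Among p53 targets, 3 of 34 were lower under both labels (8.82%, against 1.62% of all tested genes). They were *SESN2*, the DNA damage gene *GADD45A* (median 182.8 CPM in SCR and 84.6 CPM in NAA40-KD) and *TNFRSF10B*, the death receptor DR5 (359.9 and 184.9 CPM). On average 8 of the 34 were called higher (23.5%) and 3 lower (8.82%), against 7.34% and 10.3% of all tested genes. The median of the p53 list was 0.13.

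Genes of growth factor and cytokine signalling moved in both directions. Of 42 tested Wnt, FGF, BMP and EGF family ligands, *WNT7A* was higher and *HBEGF*, *EPGN* and *FGF19* were lower under both labels. These shares were 2.38% and 7.14%, against 0.479% and 1.62% of all tested genes. *HBEGF*, a ligand of the EGF receptor, was at 17.3 to 30.9 CPM in SCR and 10.1 to 13.7 CPM in NAA40-KD, with log2 fold changes of −1.12 and −1.03. *EPGN*, another ligand of the same receptor, was at 2.30 to 4.36 and 0.988 to 1.92 CPM. *FGF19*, a secreted regulator of bile acid synthesis, fell from a median of 39.6 to 17.8 CPM with overlapping libraries.

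Of 45 tested cytokines, chemokines and their receptors, 5 were lower under both labels (11.1%) and 1, *TNFRSF21*, was higher (2.22%), against 1.62% and 0.479% of all tested genes. *IL20RB*, a receptor subunit for interleukins of the IL-20 family, fell from a median of 4.87 to 0.871 CPM. *IL1RN*, the antagonist of the interleukin-1 receptor, fell from 2.79 to 1.015 CPM. *OSMR*, the oncostatin M receptor, was at 78.4 to 102.3 CPM in SCR and 35.8 to 57.3 CPM in NAA40-KD, an averaged log2 fold change of −0.91 ± 0.09. *TNFRSF10B* and *IL1R1*, the interleukin-1 receptor, were the others, the latter losing its call in 6 of 16 cases when 1 library was left out, and *IL1R1*, *TNFRSF21*, *SLC16A14* and *GLDC* are named because the counts they belong to are small.

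*NRP1*, a co-receptor for semaphorins and VEGF, was the only one of 49 tested guidance molecules lower under both labels (2.04%, against 1.62% of all tested genes). It stood at 13.3 to 26.1 CPM in SCR, at 10.5 to 12.8 CPM in NAA40-KD (+dox) and at 2.91, 2.74, 3.06 and 1.235 CPM in NAA40-KD (−dox), the last in replicate 4. The log2 fold change was −1.01 under (+dox) and −2.88 under (−dox), and the interaction passed the test (adjusted p = 0.00108). A standing difference in *NRP1* was thus accompanied by a further one between the labels. *GRB10*, an imprinted adaptor of insulin receptor signalling, showed the opposite order, with −1.32 under (+dox) and −0.53 under (−dox) (interaction adjusted p = 0.0282).

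*ULBP1* and *RAET1E*, stress ligands of the natural killer cell receptor NKG2D, were lower under both labels (*RAET1E* not when any 1 of 5 libraries was left out), and *ERAP1*, a peptidase that trims antigenic peptides, was higher, among 25 tested genes of NKG2D ligands and antigen presentation. The lower genes were 8% of the list and the higher gene 4%, against 1.62% and 0.479% of all tested genes. *ULBP1* was at 31.3 to 45.4 CPM in SCR and 11.45 to 21.8 CPM in NAA40-KD, with log2 fold changes of −1.45 and −1.02. *ERAP1* had overlapping libraries, a log2 fold change of 0.64 ± 0.13, and lost its call under both labels when any 1 of 12 libraries was left out. Among 15 keratins, *KRT20* and *KRT23* were lower (13.3%, against 1.62% of all tested genes), the latter from a median of 13.5 to 6.502 CPM. On average 2 keratins were called higher and 3 lower with a log2 fold change above 1. The median of the keratins was −0.32 under (+dox) and 0.67 under (−dox). *SOX9* and *CCND1*, both targets of Wnt signalling, were higher among 19 tested Wnt targets (10.5%, against 0.479% of all tested genes), and 0 were lower. On average, however, 3 of the 19 were called higher (15.8%) and 5 lower (26.3%), against 7.34% and 10.3% of all tested genes. The median of the Wnt targets was −0.06. *CCND1*, encoding cyclin D1, was at 447.5 to 562.8 CPM in SCR and 672.8 to 865.6 CPM in NAA40-KD (0.55 ± 0.07), and *SOX9* at 66.8 to 94.4 and 108.6 to 135.4 CPM (0.52 ± 0.09).

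Single members of further lists were called under both labels, where 1.62% of all tested genes were lower and 0.479% higher. *PKP2*, a desmosomal protein gene, was the one member of 39 tested junction genes (0.55 ± 0.08), *ACACA*, acetyl-CoA carboxylase, the one of 33 lipid synthesis genes (0.43 ± 0.08), and *PGK1*, a glycolytic enzyme gene, the one of 39 glycolysis and hypoxia genes (−0.76 ± 0.08). *PKP2* and *PGK1* each lost the call when any 1 of 6 libraries was left out. *HOXB9* was the one of 25 HOX genes, at 36.8 to 52.4 CPM in SCR and 20.8 to 33.4 CPM in NAA40-KD. Of 254 solute carriers, 4 were lower (1.57%) and 2 higher (0.787%), shares near those of all tested genes (1.62% and 0.479%). The lower ones included *SLC1A4*, *SLC7A11* and *SLC3A2*, and the higher ones were *SLC16A14* and *SLC46A1*, the proton-coupled folate transporter (0.88 ± 0.12). Of 344 zinc finger genes, *ZNF488* was higher (0.96 ± 0.11) and *ZNF827* lower (−0.64 ± 0.10).

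In other lists the average hid a difference between the labels. Of 54 tested DNA replication genes, 23 were called lower on average (42.6%) and 1, *MCM6*, was lower under both labels, where 10.3% of all tested genes were lower on average and 7.34% higher. The median of the list was 0.12 under (+dox) and −0.77 under (−dox). *MCM6*, a subunit of the replicative helicase, was at 119.4 to 196.4 CPM in SCR and 62.8 to 97.1 CPM in NAA40-KD, with log2 fold changes of −0.93 and −0.85. Of 53 genes of G2/M phase, 28 were lower on average (52.8%) and 2 under both labels, *BIRC5*, encoding survivin (−1.06 ± 0.12), and *KIF2C*, a mitotic kinesin gene (−0.65 ± 0.09), and the medians were −0.12 and −0.66. Type I interferon response genes numbered 39, of which 12 were higher (30.8%) and 3 lower (7.69%) on average and 0 were called the same way under both labels, with medians of −0.05 and 0.56. Mesenchymal genes (23 tested), intestinal genes (11), mitochondrially encoded genes (13), acetyltransferase genes (22), cytosolic ribosomal protein genes (78), replication-dependent histone genes (11), clustered protocadherins (4) and cancer-testis antigens on the X chromosome (5) also held 0 genes called the same way under both labels.

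Without NAA40-KD (−dox) replicate 4, when 4.89% of all tested genes were called lower and 3.2% higher under both labels, several of these counts changed. Glycolysis and hypoxia genes then had 10 of 39 lower (25.6%) and G2/M genes 7 of 53 (13.2%), while DNA replication genes still had 1 of 54. Interferon response genes had 3 higher and 2 lower, solute carriers 12 higher and 16 lower, zinc finger genes 12 higher and 8 lower, acetyltransferase genes 2 in each direction and mesenchymal genes 1 in each. Replication-dependent histone genes had 1 higher and cancer-testis antigens 1 lower. Wnt targets had 4 lower beside the 2 higher, junction genes had 4 higher, HOX genes 3 lower, guidance molecules 3 higher and 2 lower, and keratins 1 higher and 3 lower. Cytokine and receptor genes had 7 lower and 2 higher, and one-carbon genes 8 lower and 2 higher. The p53 targets had 3 lower and 2 higher, as had the genes of NKG2D ligands and antigen presentation. Intestinal, mitochondrially encoded and ribosomal protein genes still had 0.

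One-carbon, methionine and transsulfuration genes were divided. Of 38 tested members, 5 were lower under both labels (*PSAT1*, *ALDH1L2*, *PSPH*, *MTHFD2* and *GLDC*, of the glycine cleavage system) and 1 was higher (*SLC46A1*), 13.2% and 2.63% against 1.62% and 0.479% of all tested genes. The genes that the study singled out by RNA-seq or qRT-PCR and that are described here were not called under both labels with the same sign. *MAT1A*, a methionine adenosyltransferase of liver type, was called higher on average, with a log2 fold change of 1.04 ± 0.14, but had −0.02 under (+dox) and 2.10 under (−dox). *IFIT1*, an interferon-induced gene, was at 1.00 ± 0.13 on average, from −0.05 and 2.05. *MMAA*, of cobalamin metabolism, was at 0.54 ± 0.15, from −0.03 and 1.11. *TYMS*, thymidylate synthase, was at −0.40 ± 0.10, from 0.19 and −0.998, and *POLA1*, the catalytic subunit of DNA polymerase α, at −0.69 ± 0.14, from 0.11 and −1.48. *CTH*, cystathionine gamma-lyase, and *FOXO4*, a forkhead transcription factor, were not called on average (0.13, adjusted p = 0.35, and 0.17, adjusted p = 0.323). With NAA40-KD (−dox) replicate 4 left out, both genes were called under both labels with opposite signs, lower under (+dox) and higher under (−dox).

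Opposite signs under the 2 labels, each passing the test, were found in 67 genes, 31 of them higher and 36 lower in NAA40-KD under (+dox), so that 81.8% of the genes called under both labels had the same sign. Without NAA40-KD (−dox) replicate 4 there were 479 such genes, 245 higher and 234 lower under (+dox), 63 of the original 67 among them, and the share with the same sign was 70.7%. *MYB*, a transcription factor gene, was higher under (+dox) by 0.78 and lower under (−dox) by 2.12 on the log2 scale. *NR4A3*, an orphan nuclear receptor gene, was lower under (+dox) by 1.29 and higher under (−dox) by 1.09, which left an average of −0.10. *LAMB3*, a laminin subunit gene, *IFI6*, *KRTAP2-3*, *APOBEC3H* and the pseudogene *WFDC21P* had the same order as *NR4A3*, with log2 fold changes of −2.04 to −0.88 under (+dox) and 0.90 to 1.30 under (−dox). *WFDC21P* was not called under (−dox) without NAA40-KD (−dox) replicate 4 (adjusted p = 0.0579). The differences between the 2 labels within a line are not part of the averaged comparison.

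The genes called under both labels lay on every autosome and on the X chromosome, though not evenly. On chromosome 6, 25 of 714 tested genes were lower and 2 higher, and on chromosome 19, 6 of 1031 were lower and 1 higher. On the human build GRCh38 the median averaged log2 fold change of the tested genes of a chromosome ran from −0.061 on chromosome 4 to 0.097 on chromosome 19. Under (+dox) the medians ran from −0.056 to 0.056. Under (−dox) they ran from −0.114 to 0.268, with chromosome 19 at 0.268, and there the highest NAA40-KD library against the mean of SCR was NAA40-KD (−dox) replicate 4, at 0.82, with the next at 0.008.

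**Figure D5:**
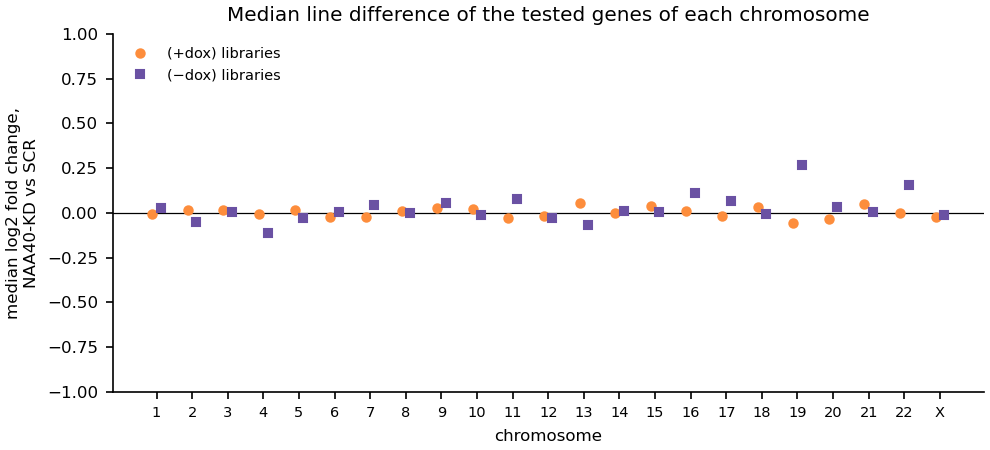
Median log2 fold change of NAA40-KD against SCR over the tested genes of each chromosome, among the (+dox) libraries (orange circles) and the (−dox) libraries (purple squares). Under (+dox) all 23 medians lie between −0.056 and 0.056, and under (−dox) chromosome 19 is highest at 0.268.

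In 13798 windows of 25 neighbouring tested genes, 0 had a median beyond 0.3 in the same direction under both labels. The largest was at chr17:48607227-50112152, from *HOXB7* to *PDK2*, with medians of −0.256 under (+dox) and −0.276 under (−dox). This window had 15 of 25 genes with a negative log2 fold change under both, against 3760 of all 14392 tested genes. Its leading genes were *HOXB9* and *TTLL6*, a tubulin polyglutamylase gene (averaged log2 fold change −0.74 ± 0.21), of which only *HOXB9* was called under both labels. The next, chr10:103446786-111013667, was led by *CALHM3* (−1.42 ± 0.32) and *ITPRIP* (−0.88 ± 0.13), neither of them called under both labels with all libraries and each of them without NAA40-KD (−dox) replicate 4 (−1.63 and −0.99 on average), with window medians of −0.232 and −0.305. The third, chr5:138465490-140346631, held *EGR1*, *HBEGF* and *NRG2*, a neuregulin gene with an averaged log2 fold change of −0.83 that missed the threshold (adjusted p = 0.0653). Without NAA40-KD (−dox) replicate 4, where *NRG2* was at 1.73 CPM against 0.152 to 0.584 CPM in the other 3 libraries of the group, it was −1.22 (adjusted p = 0.000526). Neighbouring genes are not independent.

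Some properties of the called genes were compared, of which level also bears on the filter and on the precision of the test. Protein-coding genes made up 89.9% of the 69 higher genes, 87.1% of the 233 lower genes and 87.7% of all tested genes. The median mean level was 32.4 CPM in the higher, 17.5 CPM in the lower and 25.2 CPM in all tested genes. Genes that overlap another gene in GENCODE were 73.9%, 62.7% and 69.4%, and their counts are less certain because the sources used here do not say whether strand was used in counting. As the samples are bulk RNA, fewer cells expressing a gene and less RNA per cell cannot be told apart.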

How the data were processed

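RNA-seq counts were deposited by the authors as 1 table of raw read counts per gene for 16 libraries of HCT116 cells. The authors aligned reads with STAR and counted them with featureCounts. Their methods name the mouse build mm10 and the submitters' notes name hg38 and GRCm38, whereas all 33937 gene identifiers were human Ensembl identifiers, of which 33811 were placed with GENCODE release 29 (GRCh38). The library kit differs between the sources. Some genes are not reported here.

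Counts were normalized by TMM and tested in edgeR 4.0.16 (R 4.3.3) with a quasi-likelihood model of the 4 groups, for genes above 1 CPM in at least 4 of 16 libraries. The contrasts were the line difference under each doxycycline label, their mean and their difference, each with Benjamini-Hochberg adjustment over 14392 genes. *NAA40* was also compared by exact permutation of log CPM within labels. The scripts were tested on simulated data. Total counts of 11065606 to 13855486 set the precision, and low genes were measured with the least.

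Named were *NAA40* and the genes the study names, up to 15 genes in each direction with a log2 fold change above 1 under both labels, a mean of at least 5 CPM in one line and no overlap, up to 4 called members of each list, up to 6 genes of opposite sign and the leading genes of 3 windows. The members, lists and rules were chosen with earlier results of these data known. limma 3.58.1 (voom), DESeq2 1.42.0, other normalizations, filters and thresholds, crossed labels, a replicate block and leaving out libraries were alternatives. List counts and calls of single genes without 1 library were added after the data were seen.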

Additional observations from a re-analysis of the deposited data

Results flagged for a closer look

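In 16 of 276 groups of 4 libraries of the named genes, 1 library lay apart from the other 3 by Dixon's criterion, which chance meets in about 1 group in 20, and 5 of the 16 were NAA40-KD (−dox) replicate 4. In that library *ASIC4* was at 45.2 CPM, *ACP7* at 7.49 CPM, *TNFRSF10B* at 219.8 CPM, *GADD45A* at 122.4 CPM and *LAMB3* at 368.4 CPM. In NAA40-KD (−dox) replicate 3, *PRDM1* was at 4.60 CPM and *HERPUD1* at 69.45 CPM, and in replicate 2 *KIF2C* was at 55.6 CPM. In NAA40-KD (+dox) replicate 1, *KRT20* was at 1.09 CPM, *PKP2* at 54.7 CPM and *OSMR* at 50.4 CPM. *TNFRSF10B* was at 176.5 CPM and *ACACA* at 392.8 CPM in NAA40-KD (+dox) replicate 3, and *ZNF827* at 24.5 CPM in replicate 4. In SCR (−dox), *WNT7A* was at 3.65 CPM in replicate 2 and *ANGPT2* at 4.64 CPM in replicate 4.

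The line difference itself differed between the labels, by edgeR's interaction test with Benjamini-Hochberg adjustment, for 24 named genes. The values that follow are the log2 fold change under (+dox) minus that under (−dox). Among genes lower under both labels, the gap was 1.87 for *NRP1*, 1.54 for *LONRF2*, 1.11 for *SERPINB8* and 0.64 for *PGK1*, which fell further under (−dox), and −0.96 for *FSD1*, −0.86 for *HSPA5* and −0.79 for *GRB10*, which fell further under (+dox). It was −1.37 for *ASIC4*, higher under both labels, and 0.95 for *ITPRIP*, whose log2 fold change was −0.41 under (+dox), not called, and −1.36 under (−dox). *NAA40* differed by 1.46, *MYB* by 2.90, *POLA1* by 1.58 and *TYMS* by 1.19. *MAT1A* differed by −2.12, *IFIT1* by −2.10, *FOXO4* by −1.30, *MMAA* by −1.14 and *CTH* by −0.83. Of the genes with opposite signs, *WFDC21P* differed by −3.02, *NR4A3* by −2.38, *KRTAP2-3* by −2.27, *APOBEC3H* by −2.17, *IFI6* by −1.91 and *LAMB3* by −1.80.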

How the results depend on the processing

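The count of genes called on average with a log2 fold change above 1 (267) was 512 with no filter on low counts and 88 with more than 1 CPM required in all libraries, and 252 to 294 when 1 library was left out. The count called under both labels with the same sign (302) was 180 with no filter, 104 at an adjusted p under 0.01 and 1134 without both (−dox) libraries numbered 4, and 193 to 1158 when 1 library was left out, with 193 and 196 without NAA40-KD (+dox) replicates 2 and 3. With a log2 fold change above 1 in both as well (73), it was 29 with more than 1 CPM in all libraries, 48 with each label fitted on its own 8 libraries, 43 at an adjusted p under 0.01, and 56 to 93 when 1 library was left out. The count with a difference between the labels (1327) was 465 at an adjusted p under 0.01 and 3370 without both (−dox) libraries numbered 4, and 820 to 3467 when 1 library was left out, the low end without SCR (−dox) replicate 1 (865) and NAA40-KD (+dox) replicates 3 and 4 (820 and 848). Among windows of 15 genes 2 passed 0.3 under both labels, against 0 of 25 genes. The cause of these shifts was not tested.

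DESeq2 called 446 genes under both labels, 68.6% of them lower, against 77.2% in edgeR. With each label on its own the count was 259, 143 of them among the original 302 and 64.9% of them lower, and 10 stress response targets were lower under both labels, against 18. With the labels crossed between the lines 253 genes were called, 195 of them among the original 302. Within a label, same-numbered libraries of the 2 lines showed no steady pairing: the correlation of their deviations ran from −0.416 to 0.185. Pairing by number between the labels of a line was not checked. With the replicate block the counts were 260, 275, 67 and 1217. For 69 named genes, 1847 values of the averaged log2 fold change, or of the interaction for genes of opposite signs, were compared. Of these 1837 were unchanged, 3 no longer passed at an adjusted p under 0.01 (*MMAA*, *TYMS*, *TTLL6*), 7 gained a call (*CTH* and *NRG2*) and 0 reversed. Unchanged meant the same direction and side of the threshold. With each label on its own there was no p-value, and it meant the same direction and a shift below the SD within groups. Of the 50 genes called under both labels that the naming rule gave, 36 kept that call whichever 1 library was left out, and 14 lost it at least once, *ASIC4*, *ERAP1*, *HSPA5* and *SLC3A2* in 8, 12, 13 and 14 of 16 cases. Of the genes named outside the rule, *DDIT4* lost it in 14 cases, *SPRY4* in 12, *IER3* in 7, *IL1R1* and *HLA-DPA1* in 6, *SLC16A14* in 5, *GLDC* in 4, *CARS1* in 2 and *DDIT3* and *EIF2AK4* in 1. The log2 difference of *NAA40* ran from −0.618 to −0.526. Depth limited low genes such as *CHRNA9*, with 0 to 2 counts in NAA40-KD.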

Other observations

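Genes induced by growth factors through the MAP kinase cascade, in a list of 36 written after the values were seen, had 7 members lower and 1 higher under both labels, against 1.62% and 0.479% of all tested genes. *ERRFI1*, a feedback inhibitor of the EGF receptor, was at 1517 to 1942 CPM in SCR and 455.4 to 880.4 CPM in NAA40-KD, without overlap, an averaged log2 fold change of −1.17. *EGR3*, *HBEGF*, *EPGN*, *IER3*, *ETV5* and *SPRY4* were the other lower members, and *CCND1* was the higher one. The median log2 fold change of the list was −0.49 under (+dox) and −0.34 under (−dox). Of the 36 members 21 were negative under both, as were 3760 of all 14392 tested genes. Without NAA40-KD (−dox) replicate 4, 14 members were lower under both labels, as were 4.89% of all tested genes. As the list was written with these values in view, it is a description only.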
